A study of Homo sapiens with 6 samples.

Results

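Sites of HuR on 4 long noncoding RNAs that are best known from the nucleus, MALAT1, NEAT1, KCNQ1OT1 and TUG1, are described here. A site was counted for an RNA when it overlapped the RNA's hg19 interval on the same strand by at least 1 nt. The intervals are MALAT1 at chr11:65265233-65273940 on the plus strand (8708 nt), NEAT1 at chr11:65190269-65213011 on the plus strand (22743 nt), KCNQ1OT1 at chr11:2661768-2721228 on the minus strand (59461 nt) and TUG1 at chr22:31365634-31375380 on the plus strand (9747 nt). They held 137 of the 658853 sites of the list that combines the HuR replicates. The separate lists gave 78 of 186157 sites in replicate 1, 105 of 405048 in replicate 2 and 114 of 550681 in replicate 3. A further list, limited by the authors at p 0.05, held 91 of its 373845 intervals in these RNAs.

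The study used HEK293, an established human embryonic kidney line, and DO-RIP-seq, in which lysate is digested with micrococcal nuclease and the RNA fragments that stay with a protein are recovered with an antibody and sequenced. The labels list 3 immunoprecipitations with the antibody 3A2 to HuR and 3 with antibodies of normal mouse serum, all from gel-cut fragments of 25 to 70 nt, and name no treatment of the cells. Digested lysate was pooled before it was divided over the immunoprecipitations, so each SD over the 3 HuR replicates may cover technical spread only. Values of the serum samples were not analysed here. Every site has a positive LOD score from the authors, whose scale the sources used here do not define. Because the score levels of the lists differ, scores are compared between lists by their percentile in their own list. Library depth and RNA abundance are unknown. In a bulk lysate, more molecules per cell and more cells with the RNA cannot be told apart. An exact sign-flip test over 3 replicates cannot give a p below 0.25, so differences are set against the spread between replicates and no p is given.

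HuR, encoded by ELAVL1, is a mostly nuclear shuttling protein that binds U-rich and AU-rich RNA and is known for stabilising mRNAs. MALAT1 gathers in nuclear speckles, where splicing factors are stored, and is one of the most abundant nuclear RNAs in many cells. NEAT1 is the scaffold of paraspeckles, with a short isoform that ends near the start of the gene and a long one that builds the body. KCNQ1OT1 is an imprinted transcript that runs antisense inside the KCNQ1 gene and silences neighbouring genes on its own chromosome. TUG1 is a spliced RNA linked to chromatin regulation and is also found in the cytoplasm. The lysate was cleared of debris before digestion, per the labels' protocols, and how much nuclear RNA it held was not tested.

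All 4 RNAs have stretches rich in T (U in the RNA), the kind of sequence HuR is known to bind. Those of MALAT1 and NEAT1 are set beside the sites that follow by distance from the 5′ end. Those of KCNQ1OT1 and TUG1 come from transcripts that differ in length from the intervals, and the TUG1 window is not set beside any site. For each RNA the 30-nt windows with the most T were taken from its longest GENCODE 29 transcript (GRCh38), and not every place with that many T is printed. Capitals mark runs of 4 or more T.
MALAT1, transcript position 4859 to 4888, 20 T: TTTTTTTTTTTctatagacTTTTTTcagat
MALAT1, transcript position 6531 to 6560, 20 T: ggcttacttgttgtagcTTTTTTTTTTTTT
NEAT1, transcript position 9845 to 9874, 22 T: ttcttataaTTTTcTTTTTTTTctttatgt
NEAT1, transcript position 9878 to 9907, 22 T: tgtgtgtgtgtaTTTTTTTTTTTTTaattt
NEAT1, transcript position 19322 to 19351, 22 T: agTTTTgaTTTTTTTTTTTTTTTTaatggt
KCNQ1OT1, transcript position 25133 to 25162, 28 T: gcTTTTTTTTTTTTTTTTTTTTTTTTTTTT
TUG1, transcript position 2347 to 2376, 20 T: TTTTTTTTTaTTTTTgaaTTTTgggactgt

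Over their whole transcripts, MALAT1 was 29.3% T, NEAT1 31.7%, TUG1 29.6% and KCNQ1OT1 23.5%, beside a median of 26.0% over the longest transcripts of 5772 long noncoding RNA genes of at least 1000 nt. The motif TTTTT, counted on the transcript strand with overlapping matches, occurred 9.76 times per kb in MALAT1, 6.90 in NEAT1, 6.96 in TUG1 and 2.37 in KCNQ1OT1. The median was 2.75 per kb, and 89.3% of the 5772 transcripts held at least 1 TTTTT. The motif ATTTA, counted in the same way, occurred 2.53 times per kb in MALAT1, 2.02 in NEAT1, 1.20 in TUG1 and 1.37 in KCNQ1OT1. Its median was 1.19 per kb and 83.6% of the transcripts held at least 1. The GENCODE transcripts of MALAT1 and NEAT1 have the same lengths as the hg19 intervals, 8708 and 22743 nt. That of KCNQ1OT1 is longer, at 91667 nt, and that of TUG1 is spliced, at 7469 nt. Positions in these transcripts are distances from their own 5′ ends and were not converted to hg19.

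MALAT1, NEAT1 and TUG1 were densely marked by HuR sites, and KCNQ1OT1 was sparsely marked. MALAT1 held 20, 19 and 22 sites in replicates 1, 2 and 3, which covered 14.8%, 23.9% and 17.7% of its length. NEAT1 held 33, 51 and 58 sites, which covered 8.88%, 19.9% and 19.3%. TUG1 held 22, 32 and 28 sites, which covered 14.6%, 28.8% and 20.4%. The 3 replicates gave MALAT1 nearly the same number of sites, while NEAT1 and TUG1 had the fewest in replicate 1, the shortest list. This did not hold when each list was limited to as many top-scoring sites as the shortest list has. The mean was then 9 ± 9.85 sites in MALAT1, 25.3 ± 6.66 in NEAT1 and 10.7 ± 9.87 in TUG1 (SD, n = 3). KCNQ1OT1 held 3, 3 and 6 sites over 59461 nt, which covered 0.168%, 0.168% and 0.412%. Its highest value lay below the lowest value of each of the other RNAs.

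**Figure D1:**
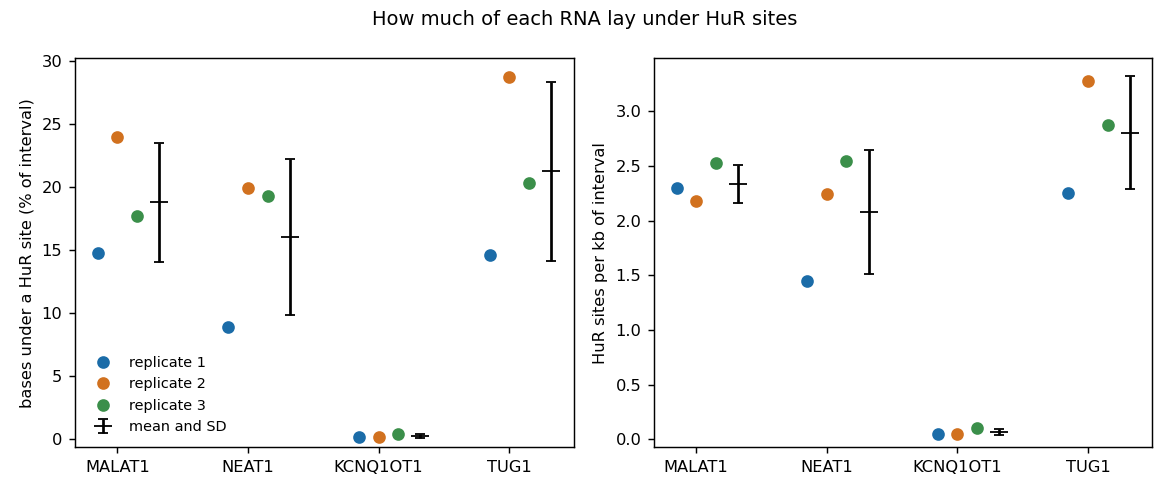
Bases under a HuR site as a percentage of each RNA's interval (left) and HuR sites per kb (right), with 1 point per replicate and a bar for the mean ± SD of 3 replicates. Points of MALAT1, NEAT1 and TUG1 overlap each other, and the points of KCNQ1OT1 lie between 0.168% and 0.412%.

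Mean coverage was 18.8% ± 4.69 for MALAT1, 16.0% ± 6.20 for NEAT1, 21.3% ± 7.12 for TUG1 and 0.249% ± 0.141 for KCNQ1OT1 (SD, n = 3 each). Within replicates, TUG1 exceeded NEAT1 by 5.74, 8.84 and 1.08 percentage points, a mean of 5.22 ± 3.90 (SD, n = 3). TUG1 minus MALAT1 was -0.14, 4.83 and 2.68 points, a mean of 2.46 ± 2.49, so these neighbours in the order did not differ beyond their spread. NEAT1 minus MALAT1 was -5.87, -4.00 and 1.60 points, a mean of -2.76 ± 3.89, also within the spread. NEAT1 exceeded KCNQ1OT1 in each replicate, by 8.71, 19.8 and 18.9 points.

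Because the lists differ in size, sites per kb were also divided by the list's mean over strand-specific 1-kb tiles that hold a combined site. MALAT1 stood at 4.35, 1.89 and 1.61 times that level in replicates 1, 2 and 3, on average 2.62 ± 1.51 (SD, n = 3). TUG1 stood at 4.27, 2.85 and 1.83 times, a mean of 2.99 ± 1.23, and NEAT1 at 2.75, 1.95 and 1.63 times, a mean of 2.11 ± 0.578. KCNQ1OT1 stood at 0.0956, 0.0438 and 0.0644 times, a mean of 0.0679 ± 0.0261. With all sites of each list used, the RNAs other than KCNQ1OT1 were above 1 in every replicate, and KCNQ1OT1 was below 0.1 in every replicate. Limited to equal numbers of top-scoring sites, MALAT1 held 9 ± 9.85 sites and TUG1 10.7 ± 9.87 (SD, n = 3). The ratio was not recomputed for such lists, so whether MALAT1 and TUG1 would stay above 1 in every replicate was not tested. Against 10-kb tiles, the mean over replicates was 7.24 for MALAT1, 8.26 for TUG1, 5.83 for NEAT1 and 0.188 for KCNQ1OT1, so the size of the ratio depends on the tile while its side of 1 does not. Taken as 1 length of sequence, the 4 RNAs stood at 1.03 ± 0.388 times, and without KCNQ1OT1, which makes up most of that length, at 2.42 times. Such a tile already holds a site, so the mean is not that of the genome, and abundance was not corrected for.

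**Figure D2:**
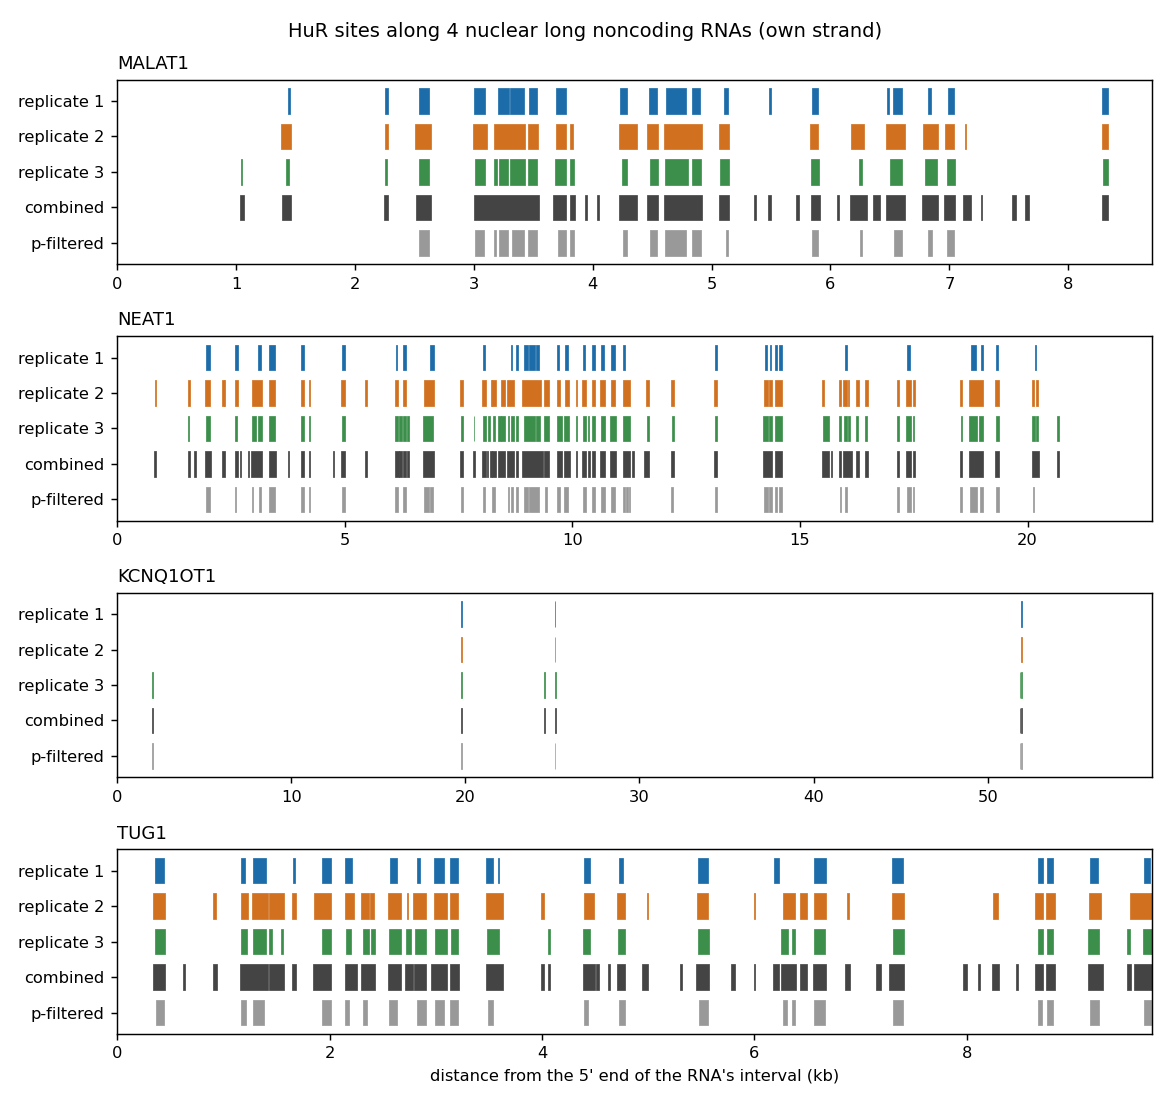
HuR sites along MALAT1, NEAT1, KCNQ1OT1 and TUG1, drawn to scale against the distance from the 5′ end in kb, with 1 row for each replicate list, the combined list and the p-filtered list. The same stretches recur from row to row in MALAT1, NEAT1 and TUG1, while KCNQ1OT1 shows 6 combined sites, 3 of them present in every replicate row.

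Sites in these RNAs recurred between replicates when all sites of each list were used. Of the 137 combined sites, 62 (45.3%, 95% Wilson interval 37.2 to 53.6, counting error only) overlapped a site in all 3 replicate lists, where 22.9% of all combined sites did. The count was 14 of 28 in MALAT1, 27 of 61 in NEAT1, 3 of 6 in KCNQ1OT1 and 18 of 42 in TUG1. The combined sites that overlapped no replicate list numbered 9 in MALAT1, 7 in NEAT1, 0 in KCNQ1OT1 and 9 in TUG1, where 11.0% of all combined sites overlapped none. The recurrent sites of these RNAs were wide, with a median of 117.5 nt against 85 nt over all recurrent combined sites, and wider sites can meet others more easily. When at least 50% of each interval had to be shared, 28.5% of the combined sites in these RNAs and 13.4% of all combined sites were in all 3 lists. When each replicate list was limited to as many top-scoring sites as the shortest list has, the shares were 16.8% and 13.1%. With lists of that equal size, MALAT1 stood at 3.57% and TUG1 at 9.52%, both below the share of all combined sites, against 24.6% for NEAT1 and 50% for KCNQ1OT1. Without replicate 1, 70.5% of NEAT1's combined sites were in both remaining lists, where 51.2% of all combined sites were.

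From the side of each replicate, MALAT1 sites that overlapped both other lists numbered 18 of 20 in replicate 1, 16 of 19 in replicate 2 and 18 of 22 in replicate 3. Over the whole lists 89.1%, 37.8% and 28.4% did, so the MALAT1 count of replicate 1 was near its list's share. The counts were 31 of 33, 27 of 51 and 29 of 58 for NEAT1, and 20 of 22, 19 of 32 and 19 of 28 for TUG1. KCNQ1OT1 had 3 of 3, 3 of 3 and 3 of 6. Sites seen in 1 replicate alone numbered 1, 1 and 1 in MALAT1, 1, 5 and 7 in NEAT1, 0, 0 and 3 in KCNQ1OT1, and 1, 7 and 1 in TUG1. Over the whole lists these sites made up 4.37%, 12.8% and 35.0% of replicates 1, 2 and 3.

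Counted in bases, 1185 of the 2140 nt of MALAT1 called in any replicate were called in all 3, or 55.4%. NEAT1 had 1910 of 5210 nt (36.7%), TUG1 had 1310 of 2985 nt (43.9%) and KCNQ1OT1 had 90 of 245 nt (36.7%). Over the whole lists the share was 21.8%. All 4 RNAs together stood at 42.5%. Limited to equal numbers of top-scoring sites, MALAT1 stood at 5.56%, the lowest of the 4, and TUG1 stood at 19.0%, NEAT1 at 34.0% and KCNQ1OT1 at 66.7%, beside 22.6% over the whole lists. With replicate 1 left out, the bases shared by replicates 2 and 3 made up 68.5% of those in either for the 4 RNAs and 71.9% for NEAT1, beside 56.6% over the whole lists. With replicate 3 left out, KCNQ1OT1 stood at 81.8%, beside 31.9% over the whole lists.

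The authors' p filter kept 75 of the 137 combined sites (54.7%, 95% Wilson interval 46.4 to 62.8), where 52.3% of all combined sites were kept, a share close to that of the list. Among sites with a LOD above 1 it kept 70.8% in these RNAs and 54.4% of the list, so above that threshold the shares were not close. When at least 50% of each interval had to be shared, the order was the other way, at 36.5% in these RNAs and 41.7% of all combined sites. Without a threshold and with at least 1 nt shared, the filter kept 13 of 28 sites in MALAT1, 37 of 61 in NEAT1, 5 of 6 in KCNQ1OT1 and 20 of 42 in TUG1. Of the 62 recurrent sites, 59 were kept, where 98.1% of all recurrent combined sites were. The 3 that were removed all lay in MALAT1, and 1 of them is the site nearest its 3′ end.

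The RNAs differed in how their sites ranked within the lists. MALAT1 sites ranked low, with median LOD percentiles of 16.2, 9.12 and 7.23 in replicates 1, 2 and 3, on average 10.9 ± 4.75 (SD, n = 3). TUG1 sites also ranked low, at 17.4, 9.62 and 12.8, a mean of 13.3 ± 3.89. NEAT1 sites stood near the middle of the lists, at 70.2, 45.4 and 49.4, a mean of 55.0 ± 13.3. The few KCNQ1OT1 sites stood at 60.3, 94.5 and 69.8, a mean of 74.9 ± 17.7. In every replicate the medians of MALAT1 and TUG1 lay below those of NEAT1 and KCNQ1OT1, with no overlap between these pairs of RNAs. MALAT1 lay below TUG1 in each replicate, although their ranges over the replicates overlapped. The ranges of NEAT1 and KCNQ1OT1 overlapped as well.

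Low ranks did not hold for every site of an RNA. MALAT1 had 14 of 20, 13 of 19 and 17 of 22 sites below its list's median and none in the top 10% of any replicate list. TUG1 had 15 of 22, 26 of 32 and 22 of 28 below the median, and 1, 3 and 2 in the top 10%. NEAT1 had 13 of 33, 28 of 51 and 29 of 58 below the median, and 3, 5 and 4 in the top 10%. In the combined list, where 10.0% of sites make up the top by construction, the top 10% held 0 of 28 sites of MALAT1, 11 of 61 of NEAT1, 2 of 6 of KCNQ1OT1 and 4 of 42 of TUG1. Combined scores below 1 were given to 11 sites of MALAT1, 7 of NEAT1, 0 of KCNQ1OT1 and 13 of TUG1, which is 22.6% of the 137 sites, beside 3.78% of all combined sites. When only sites with a LOD above 2 were ranked, the mean of the replicate medians was 31.3 for MALAT1 and 22.8 for TUG1, still the lowest of the 4 RNAs. The cause of the low ranks was not tested.

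**Figure D3:**
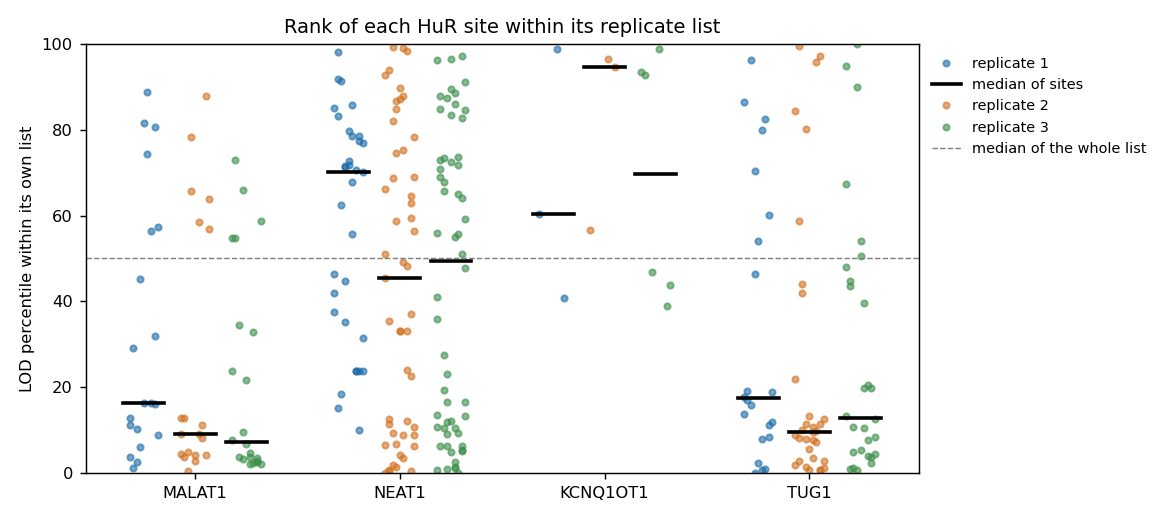
LOD percentile of every HuR site within its own replicate list, by RNA and replicate, with a black bar for the median of the RNA's sites and a dashed line for the median of the whole list. The bars of MALAT1 and TUG1 lie between 7.23 and 17.4, those of NEAT1 between 45.4 and 70.2, and those of KCNQ1OT1 between 60.3 and 94.5.

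In MALAT1 the sites gathered in the middle of the RNA. With each RNA divided into 3 equal parts, its middle part was covered to 30.0%, 42.5% and 33.8% in replicates 1, 2 and 3, against 4.48%, 8.27% and 5.00% of the 5′ part and 9.82%, 21.0% and 14.3% of the 3′ part. The middle part was highest each time and the ranges did not overlap. No replicate had a site in the first 1000 nt, and the first combined site began after 1033 nt. The 1-kb bin from 3001 to 4000 nt held 425 nt called in all 3 replicates, the most of any bin in the 4 RNAs. Of all strand-specific 1-kb tiles with a combined site, 99.8% held less. The next bin, from 4001 to 5000 nt, held 355 nt.

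Nearly all of a wide combined site at chr11:65268231-65268780 lies in the bin from 3001 nt. It is 550 nt wide and has a combined LOD of 7.20, at percentile 58.1. It covers 4 sites of replicate 1, 3 of replicate 2 and 5 of replicate 3. The replicate sites sharing the most bases with it ranked low, at percentiles 8.90, 12.9 and 6.78 of their lists. This combined site lies outside the rule for named sites and was chosen after its values were seen. The highest combined LOD in MALAT1, 11.9, was at chr11:65269836-65270155, 4604 to 4923 nt from the 5′ end, and stood at percentile 89.3. The replicate sites there, those sharing the most bases with it where a replicate had more than 1, stood at percentiles 80.6, 87.9 and 54.8 of their lists. Combined LOD scores were 10.8 at chr11:65267751-65267870 and 9.56 at chr11:65271701-65271855, 6469 to 6623 nt from the 5′ end. By distance from the 5′ end, the T-rich window of transcript position 4859 falls within the range of the first of these 3 sites and that of position 6531 within the range of the last. The 2 frames were set side by side by distance alone.

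The site nearest the 3′ end of MALAT1 was at chr11:65273516-65273570, 370 nt before the end of the interval. MALAT1 is known to end in a triple helix that shields it from decay, and where the helix lies relative to this site was not tested. The site was found in all 3 replicates with LOD scores of 4.25, 2.65 and 0.932, at percentiles 31.9, 9.12 and 3.31 of their lists. All 3 replicates ended this site at the same base. The p filter removed it, although its combined LOD of 7.88 stood at percentile 64.7. A minus-strand site at chr11:65273566-65273590 overlapped its end, with a combined LOD of 6.06, and was in the list of replicate 3 alone.

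NEAT1 sites were spread along the long isoform, with the most in its middle. The middle part was covered to 13.8%, 28.5% and 28.97% in replicates 1, 2 and 3, against 8.57%, 17.3% and 14.1% of the 5′ part and 4.29%, 14.0% and 14.8% of the 3′ part. Within each replicate the middle part was highest. The bin from 9001 to 10000 nt held 347 nt called in all 3 replicates, and 99.6% of tiles with a combined site held less. In all, 17 of 23 bins held a base called in all 3 replicates, where 32.3% of tiles with a combined site did. The last 2 bins, and the last 2061 nt of the interval, held no site in any replicate.

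The first 4000 nt of NEAT1, which contain the short isoform, were covered to 8.88%, 16.6% and 10.9% in replicates 1, 2 and 3, against 8.88%, 20.6% and 21.1% of the rest. The difference was -0.00832, -4.02 and -10.2 percentage points, a mean of -4.74 ± 5.13 (SD, n = 3). It was close to 0 in replicate 1 and below 0 in replicates 2 and 3, and its mean was within the spread between replicates. The first 4000 nt make up 17.6% of the length and held 14.1% ± 3.86 of the called bases (SD, n = 3). Fragments from the first 4000 nt can come from either isoform.

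The strongest NEAT1 site was at chr11:65201106-65201225, 10838 to 10957 nt from the 5′ end, with a combined LOD of 17.3 at percentile 98.9. Its replicate scores of 7.40, 9.02 and 6.61 stood at percentiles 85.9, 99.2 and 96.6, so it ranked high in all 3. Next came chr11:65207591-65207715, with a combined LOD of 15.5 and percentiles of 77.3, 99.2 and 84.8. At chr11:65200086-65200210, 9818 to 9942 nt from the 5′ end, the site had a combined LOD of 15.2 and percentiles of 72.8, 98.4 and 97.1. At chr11:65196546-65196615 the combined LOD was 13.9. It was 13.3 at chr11:65209561-65209630, 19293 to 19362 nt from the 5′ end.

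By distance from the 5′ end, the windows of transcript positions 9845 and 9878 fall within the range of the site with a combined LOD of 15.2, and that of 19322 within the range of the site with 13.3. Since not every T-rich place of NEAT1 is printed, this says nothing on the other named sites. Combined sites cover 25.5% of NEAT1 and 29.9% of MALAT1. The comparison was chosen after the positions were seen and is a description only.

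**Figure D4:**
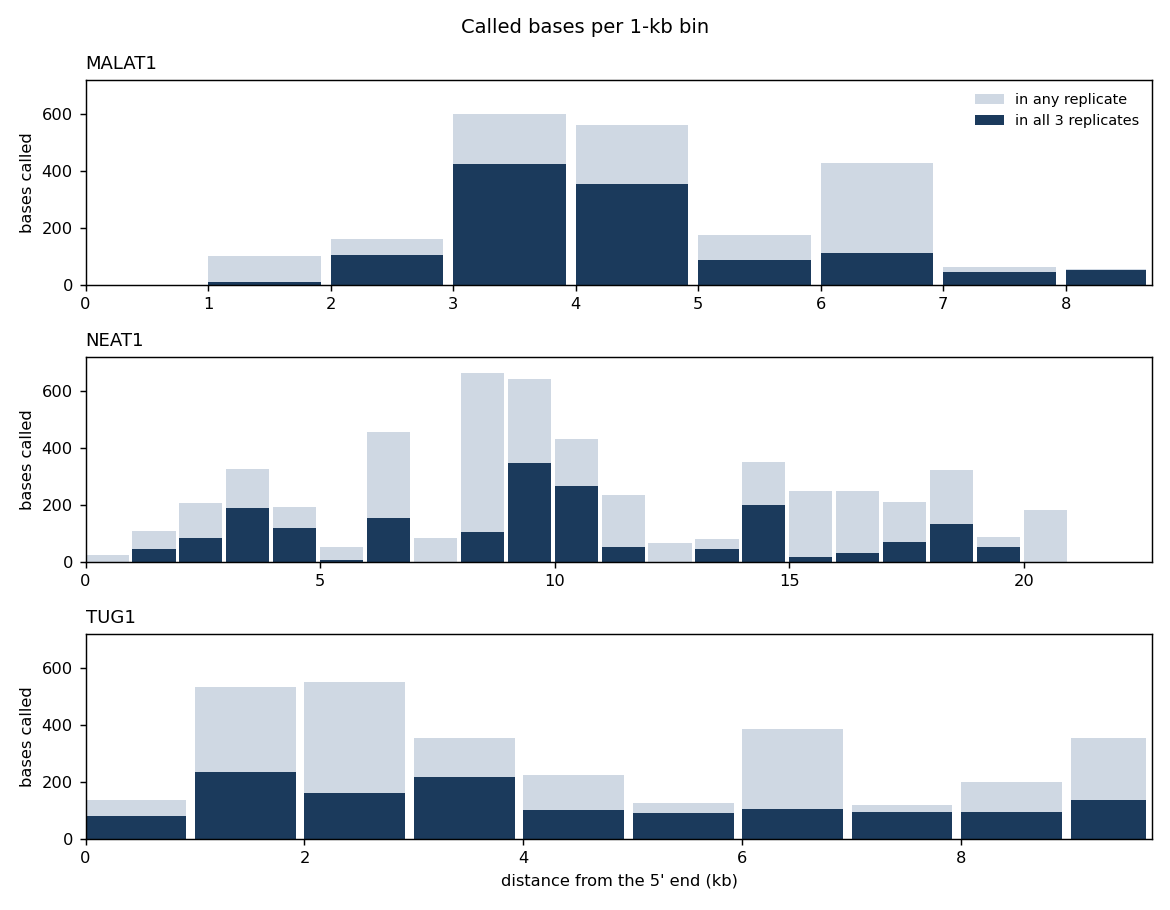
Bases called in any replicate (light) and in all 3 replicates (dark) per 1-kb bin from the 5′ end of MALAT1, NEAT1 and TUG1, where the last bin of each RNA is shorter. The highest dark bars are 425 nt in MALAT1, 347 nt in NEAT1 and 233 nt in TUG1, and each of the 10 TUG1 bins has a dark bar.

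TUG1 carried sites over its whole interval, and which of them lie in exons was not analysed here. Each of its 10 bins held bases called in all 3 replicates, from 80 to 233 nt per bin. The 5′ part was covered to 20.6%, 41.4% and 30.8% in replicates 1, 2 and 3, against 9.70%, 20.8% and 13.9% of the middle part and 13.5%, 24.2% and 16.5% of the 3′ part. The 5′ part was highest in each replicate.

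The strongest TUG1 site was at chr22:31368586-31368735, with a combined LOD of 18.0, the highest of the 137. Its replicate scores of 9.42, 9.39 and 8.79 stood at percentiles 96.3, 99.5 and 99.9, the steadiest of the 18 named sites, with a mean of 98.6 ± 1.98 (SD, n = 3). The site at chr22:31372181-31372310 had a combined LOD of 14.1 and percentiles of 54.1, 95.7 and 90.0. The site at chr22:31365976-31366085, 343 to 452 nt from the 5′ end, had 12.8, and that at chr22:31368181-31368310 had 12.1. The site at chr22:31375211-31375380 had 10.2 and ended with the interval. TUG1 thus held the highest score among these RNAs while most of its sites ranked low.

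KCNQ1OT1 had 6 sites on its own strand, 3 of them in every replicate list. The site at chr11:2701426-2701475 had a combined LOD of 16.6 at percentile 98.4, with replicate percentiles of 98.7, 96.5 and 92.7. The site at chr11:2696051-2696100, 25129 to 25178 nt from the 5′ end, had 16.2, with percentiles of 40.9, 94.5 and 98.9. The site at chr11:2669261-2669305 had 11.9, with percentiles of 60.3, 56.6 and 93.4. The T-rich window of the longer GENCODE transcript lies at a like distance, 25133 to 25162 nt, from that transcript's own 5′ end, and whether both 5′ ends are the same base was not tested. The other 3 sites, at combined LOD scores of 7.91, 6.50 and 6.02, were in the list of replicate 3 alone and are named although they fall outside the rule for named sites.

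The strand of the sites set KCNQ1OT1 apart. Its own strand held 3, 3 and 6 sites in replicates 1, 2 and 3, against 3, 1 and 25 on the opposite strand, which is that of KCNQ1, a potassium channel gene. Of the 27 combined sites on the opposite strand, 25 overlapped the replicate 3 list and 22 were in that list alone, where 80.2% of all combined sites overlapped the replicate 3 list. Replicate 1 held 3 of the 27 and replicate 2 held 1, where 25.4% and 59.2% of all combined sites overlapped these lists. The p filter kept 5 of the 27, where 52.3% of all combined sites were kept. In the p-filtered list the KCNQ1OT1 strand and the opposite strand held 5 intervals each. Only 1 of the 27 was in all 3 lists, at chr11:2718101-2718135, with a combined LOD of 16.9. More sites on the KCNQ1 strand than on the KCNQ1OT1 strand were thus listed in replicate 3, and not in replicates 1 and 2.

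The opposite strand was nearly empty at the other RNAs. In replicates 1, 2 and 3 it held 0, 0 and 1 site at MALAT1, 0, 0 and 0 at NEAT1 and 1, 1 and 1 at TUG1. The TUG1 site at chr22:31372046-31372075 on the minus strand was in all 3 replicate lists, had a combined LOD of 14.1 and was kept by the p filter. It overlapped a TUG1 site on the plus strand. Over the 4 RNAs, 91.4% ± 9.23 of the sites in the intervals were on the RNA's own strand (SD, n = 3), and 98.6% were without KCNQ1OT1.

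Sites of MALAT1 and TUG1 stopped at the ends of the intervals. MALAT1 held 19 to 22 sites per replicate and TUG1 22 to 32, against 0 in each replicate in the same-strand windows of equal length directly upstream and downstream. In the combined list MALAT1 had 0 sites in either window and TUG1 had 1 downstream. NEAT1 had 33, 51 and 58 sites within, against 4, 9 and 8 in the upstream window and 0, 0 and 1 downstream. KCNQ1OT1 had 3, 3 and 6 sites within, against 0, 0 and 0 upstream and 3, 4 and 3 downstream. Its downstream window thus did not differ from the interval beyond the spread. The GENCODE transcript of KCNQ1OT1, at 91667 nt, is longer than the interval. Its flanking windows may therefore hold more of the same RNA, which was not tested. Over the 4 RNAs, sites within the intervals were 19.1 ± 3.07 times the mean of the flanking windows (SD, n = 3). Without KCNQ1OT1 they were 28.1 ± 8.21 times that mean. Which genes lie in the flanking windows on hg19 was not analysed here.

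**Figure D5:**
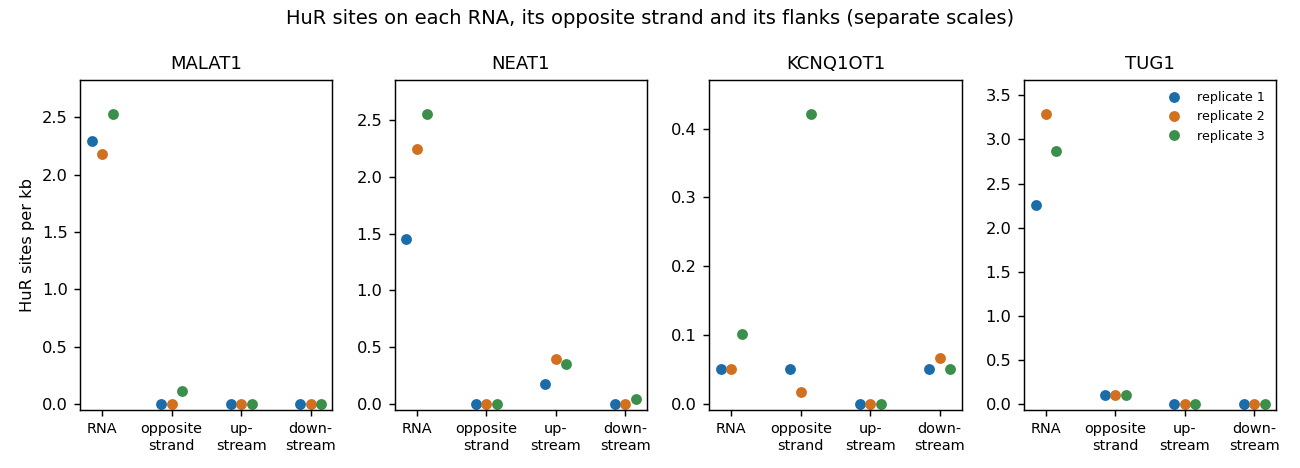
HuR sites per kb on each RNA, on the opposite strand of its interval and in the same-strand windows of equal length upstream and downstream, with 1 point per replicate and a separate vertical scale for each RNA. MALAT1, NEAT1 and TUG1 stand above their surroundings in every replicate, while the opposite strand of KCNQ1OT1 has 25 sites in replicate 3, the highest point of its panel.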

How the data were processed

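HuR immunoprecipitations of HEK293 lysate, numbered 1 to 3 by their titles, were compared. The submitters' processing notes name cutadapt 1.0, TopHat2 2.0.8 and the build hg19. The LOD score of each interval was deposited by the authors. The sources used here do not give how intervals were called or scored. All values were above 0, and intervals start and end on a grid of 5 nt. Coordinates are 1-based.

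Intervals were overlapped (bedtools 2.31.1) and summarised in Python 3.11.15 with pandas 2.3.3, numpy 2.4.6 and scipy 1.17.1, on the same strand and with at least 1 nt shared. Percentiles are mid-ranks within a list. The code gave 0 wrong answers on 4000 simulated sites. Named sites are, for each RNA, the 5 with the highest combined LOD among those in all 3 replicate lists, and the fullest 1-kb bin. The RNAs and comparisons were chosen with earlier results of these data known. Alternatives were score thresholds of 1 and 2, stricter overlap, equal list sizes, 10-kb tiles and leaving out replicates. The alternative without KCNQ1OT1 was added after seeing the data. Site sequences were not read, because no hg19 genome was used here. Reads, depth and the serum samples were not analysed here. Not every T-rich place is reported here.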

Additional observations from a re-analysis of the deposited data

How the results depend on the processing

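For 39 results, 233 values were recomputed, most of them for single RNAs. Of these, 171 differed from the reported value by no more than its error and 62 differed by more. Reversals of direction were not labelled. Values below are over the 4 RNAs together unless an RNA is named. The relative density, 1.03 as reported, was 0.929 at LOD above 1 and 0.874 at LOD above 2. It was 0.814, 1.10 and 1.19 without replicates 1, 2 and 3, so its side of 1 was not stable. The error was a fold of 1.5 for site numbers, otherwise 1 SD between replicates or a 95% Wilson interval, which covers counting error only. At LOD above 1 the p filter kept 70.8% of the sites, and at LOD above 2 it kept 80.4%, with a median percentile of 48.7 and 40.3% of bases in all 3 replicates. Over all combined sites the filter then kept 54.4% and 55.9%. Under an overlap of at least 50% of each interval, 28.5% of sites were in all 3 lists and 36.5% were kept, against 41.7% over all combined sites. With equal numbers of top-scoring sites, a replicate held 48 sites on average, 24.5% of bases and 16.8% of sites were in all 3. With 10-kb tiles the relative density was 2.85, and without KCNQ1OT1 it was 2.42, with 28.1 times the sites of the flanks. Without each replicate in turn, bases in both remaining lists ranged from 48.8% to 68.5% and sites in both from 46.0% to 62.0%, the highest without replicate 1. Over the whole lists, bases in both stood at 56.6%, 25.8% and 31.9% without replicates 1, 2 and 3. Of all combined sites, 51.2%, 23.6% and 23.7% were in both, so the whole lists were also highest without replicate 1. Leaving a replicate out also changes the rule from 3 lists to 2. The cause of the other differences was not tested. Statements on missing sites are limited by the unknown depth. For MALAT1 and TUG1 alone, flanks with 0 sites gave no ratio. No paired analysis was possible because values of the serum samples were not analysed here.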
